A study of Mus musculus with 12 samples.

Results

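The Ube2 genes encode ubiquitin-conjugating enzymes, the E2 step of the ubiquitin system. Their members were taken as the probe sets of the array table whose single gene symbol begins with Ube2 and a letter, a rule that uses no measured value. It found 81 probe sets of 33 genes, out of 45037 probe sets and 18193 genes in all. Of these genes, 9 had 1 probe set and 24 had several, up to 7 for Ube2d3. Each gene was represented by the probe set with the highest mean intensity over the 12 arrays, with its other probe sets beside it. Of the chosen probe sets, 29 reached a mean intensity of 32, and 4 did not (Ube2c, Ube2l6, Ube2u and Ube2d2b). Among members by name, Ube2cbp (also called Ube3d) acts as a ligase, and Ube2d-ps is annotated as a non-coding gene. Ube2l3 stood only on probe sets that name several genes and was left out.

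Whole hearts of male C57BL/6J mice were measured on 12 Affymetrix arrays, with 3 arrays in each of 4 groups. The labels give an age of 8 to 10 weeks, a single dose of 15 mg/kg doxorubicin (DOX, an anthracycline used against cancer) and hearts taken at day 5. The groups were DOX-treated knockout-labelled hearts, DOX-treated WT hearts, untreated knockout-labelled hearts and untreated WT hearts. The altered gene is Stub1, which encodes CHIP, a cochaperone and E3 ubiquitin ligase. The labels call the altered mice CHIP knockout, whereas the paper describes a transgene that expresses CHIP in the heart, a higher dose, older mice and saline in the controls. Stub1 had intensities of 5561, 7998 and 8723 in DOX-treated knockout-labelled hearts, against 1944, 1950 and 1930 in DOX-treated WT hearts. Without DOX the values were 8762, 9817 and 9655 in knockout-labelled hearts, against 1857, 1831 and 1790 in WT hearts. Stub1 on this probe set (1416580_a_at) was thus higher in the hearts labelled knockout, by 1.89 on the log2 scale with DOX (SE 0.13, limma adjusted p = 9.95e-04) and by 2.34 without DOX (SE 0.13, adjusted p = 2.25e-04). A second Stub1 probe set (1434412_x_at) gave log2 fold changes of -0.08 (adjusted p = 0.736) and -0.04 (adjusted p = 0.936). The measured direction goes against the label, and every genotype difference given here is that of the hearts labelled knockout over WT, as labelled.

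Ubiquitin is activated by an E1 enzyme, handed to the active-site cysteine of an E2 and then attached to a substrate with the help of an E3 ligase. The E2 often decides which type of ubiquitin chain is built. CHIP works with E2 enzymes of the UBE2D family, with the pair UBE2N and UBE2V1, and with UBE2W. In the heart the system removes damaged and misfolded proteins and takes part in the turnover of sarcomere proteins.

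The deposited values are linear intensities. The value 32 was added before the log2 was taken, which makes fold changes of dim probe sets smaller than those of the raw ratio. A gene was called at an adjusted p under 0.05 in limma, fitted to all 12 arrays and adjusted over all 45037 probe sets. Array medians lay between 28.9 and 30.4, and all 6 cardiomyocyte markers were measured, with a summed intensity of 70772 to 86091 on the 12 arrays. Untreated knockout-labelled replicate 3 had the lowest mean correlation with its own group, 0.9896, where the other arrays had 0.992 to 0.9965. Counts of called members, and their calls on chosen probe sets, are given with and without it. Single values of members that were not called, of related genes and of markers are given on all 12 arrays only. In a whole heart, fewer cells of a type and less RNA per cell cannot be told apart. The arrays are labelled biological replicates, and the sources used here do not say whether hearts were pooled.

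Ube2d3, a broadly acting E2 that serves many ligases including CHIP, was lower in knockout-labelled than in WT hearts both with and without DOX. Ube2o and Ube2f also passed the test between the untreated genotypes, Ube2o lower and Ube2f higher. After DOX, Ube2e3 fell in both genotypes, and Ube2f and Ube2t fell in knockout-labelled hearts. Of the 33 genes, 1 was called between the genotypes with DOX (3.03%, against 1.42% of all genes) and 3 between the untreated genotypes (9.09%, against 2.75% of all genes). The DOX response had 3 calls in knockout-labelled hearts (9.09%, against 3.24% of all genes) and 1 in WT hearts (3.03%, against 3.97% of all genes). No member was called for the interaction, which asks whether the DOX response differs between genotypes, and 0% of all genes were. At an unadjusted p under 0.05 the interaction had 3 members in limma, Ube2s above 0 and Ube2d3 and Ube2t below 0, which is 3 of 33 where 9.85% of all genes had such a p. Without untreated knockout-labelled replicate 3 the counts, in the same order, were 2, 1, 0 and 3. The share of all genes called in that fit was not counted, and a share that rests on so few genes is a description.

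**Figure D1:**
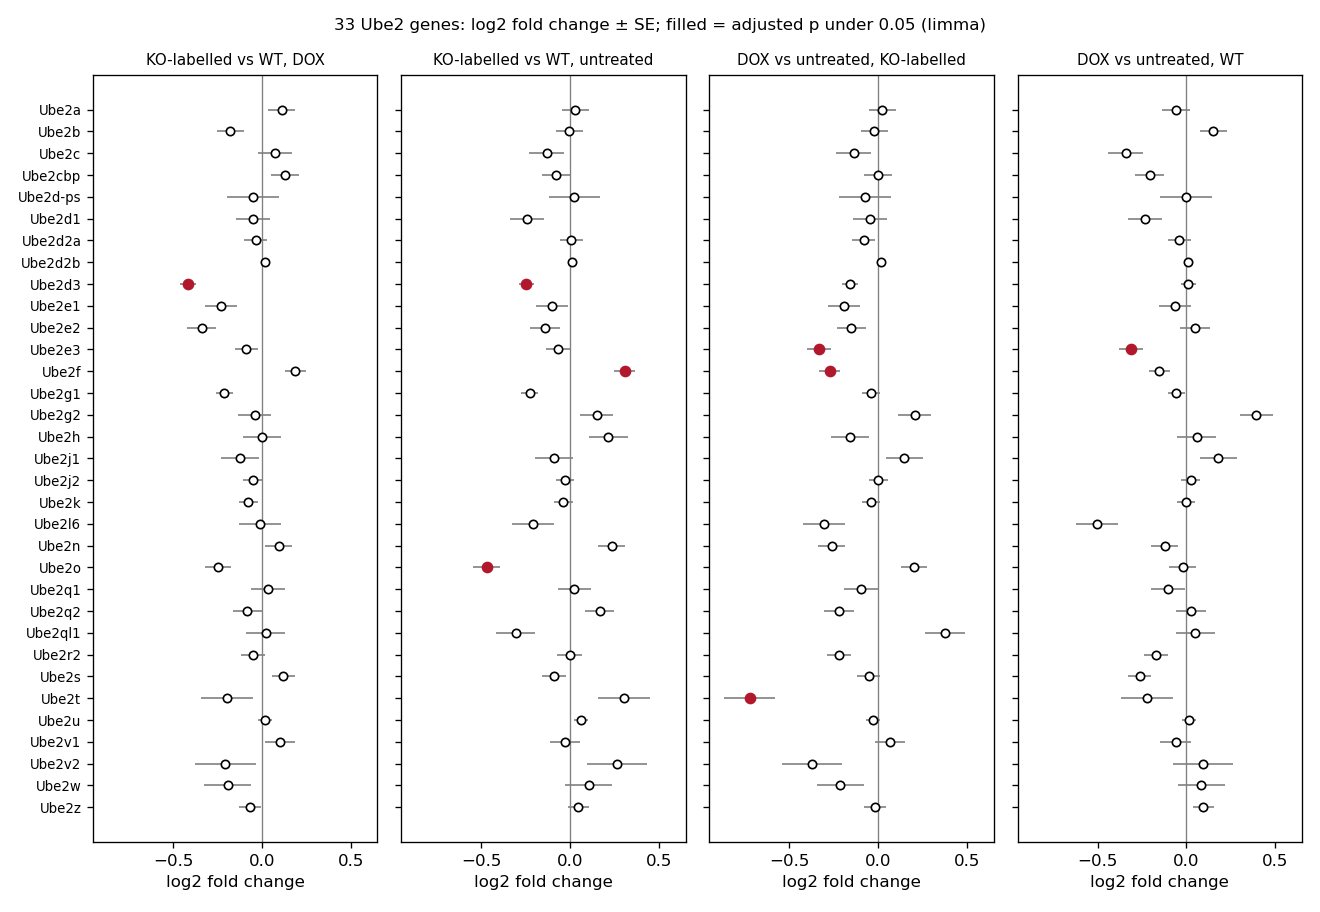
Log2 fold change of the 33 Ube2 genes (horizontal axis, points ± SE) in 4 comparisons, from left to right knockout-labelled over WT with DOX, the same without DOX, DOX over untreated in knockout-labelled hearts and the same in WT hearts. Filled points passed an adjusted p under 0.05 in limma: Ube2d3 in the first panel, Ube2d3, Ube2f and Ube2o in the second, Ube2e3, Ube2f and Ube2t in the third and Ube2e3 in the fourth.

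The signs of the members' log2 fold changes were counted in each comparison, and no difference between comparisons was tested. In the DOX response of knockout-labelled hearts 26 of 33 members had a log2 fold change below 0 (78.8%, against 48% of all genes), with a median of -0.08, against 0.00 over all genes. Without untreated knockout-labelled replicate 3 it was again 26 of 33, and over all the arrays left out in turn it was 23 to 26. In WT hearts 19 of 33 were below 0 (57.6%, against 58.2% of all genes), with a median of -0.02 for both. After quantile normalization 25 members were below 0 in knockout-labelled hearts (median -0.05, against 50.1% and 0.00 over all genes) and 22 in WT hearts (median -0.06, against 58.6% and -0.02), so the counts of the 2 genotypes lay closer under that scaling. With array medians subtracted, 27 members were below 0 in knockout-labelled hearts (against 57.1% of all genes) and 17 in WT hearts (against 55.5%). Between the genotypes with DOX, 21 of 33 were below 0 (63.6%, against 44.8% of all genes). After quantile normalization 16 were (against 44.6%), and the median then was 0.00 where it had been -0.05. With array medians subtracted 24 were (against 54.3%), with a median of -0.07. Between the untreated genotypes, 18 of 33 were below 0 (54.5%, against 54.2% of all genes). Groups that did not overlap lay lower for 9 members in the DOX response of knockout-labelled hearts (background 12.3%) and for 7 in that of WT hearts (16.4%). Higher groups without overlap were found for 2 members (11.3%) and 3 members (11%). Between the genotypes 5 members lay lower without overlap with DOX (10.2%) and 5 without DOX (13.1%), and 2 (12.8%) and 4 (9.64%) lay higher.

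Promoter windows of 3 of the 5 called genes are shown, since the called genes are those whose level differed between groups and no window was held for the other 2, Ube2e3 and Ube2o. Each runs from 250 bases before to 50 bases after the most upstream start in RefSeq (GRCm38.p6), 300 bases, 5′ to 3′ on the plus strand. Capitals mark the GC box (GGGCGG) and the CCAAT box (CCAAT) in Ube2d3 at chr3:135437982-135438281, the CCAAT box and the ETS motif (CCGGAAG) in Ube2f at chr1:91250054-91250353, and the CCAAT box in Ube2t at chr1:134962315-134962614, on either strand.
Ube2d3: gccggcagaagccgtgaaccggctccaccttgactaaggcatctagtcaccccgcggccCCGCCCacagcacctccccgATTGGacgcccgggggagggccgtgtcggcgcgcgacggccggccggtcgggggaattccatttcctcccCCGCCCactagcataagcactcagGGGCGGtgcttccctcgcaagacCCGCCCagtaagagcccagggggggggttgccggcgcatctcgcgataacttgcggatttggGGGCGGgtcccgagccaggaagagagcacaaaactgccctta
Ube2f: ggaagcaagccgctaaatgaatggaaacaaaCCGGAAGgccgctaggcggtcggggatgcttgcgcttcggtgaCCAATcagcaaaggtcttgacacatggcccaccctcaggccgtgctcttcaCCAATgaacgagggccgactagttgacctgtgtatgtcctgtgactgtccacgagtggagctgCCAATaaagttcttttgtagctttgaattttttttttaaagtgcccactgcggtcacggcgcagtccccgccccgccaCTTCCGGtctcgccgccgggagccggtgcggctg
Ube2t: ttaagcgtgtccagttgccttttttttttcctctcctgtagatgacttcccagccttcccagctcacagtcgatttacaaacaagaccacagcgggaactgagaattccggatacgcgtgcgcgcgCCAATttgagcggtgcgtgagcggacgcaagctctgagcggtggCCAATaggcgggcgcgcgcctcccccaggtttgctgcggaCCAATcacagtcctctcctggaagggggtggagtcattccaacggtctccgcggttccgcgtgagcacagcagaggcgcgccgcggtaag
The Ube2d3 window holds 5 GC boxes and 1 CCAAT box, the Ube2f window 3 CCAAT boxes and 2 ETS motifs, with 1 GC box and 1 TTTGAA left in lower case, and the Ube2t window 3 CCAAT boxes. A window was held for 27 of the 33 members. GC boxes were in 20 of these 27, and in 35.9% of all 27025 windows of the same length. CCAAT was in 7 of 27 (38.0% of all windows), CCGGAAG in 5 (9.1%), the E-box CACGTG in 3 (7.2%), the cell cycle element TTTGAA in 4 (18.2%) and the heat shock element GAANNTTC in 0 (8.0%). In all searches both strands were read, no 2 of these motifs contain one another, and a match is a description of letters and not a bound site. Ube2c, which the cell cycle controls in many tissues, had 6 CCAAT boxes and 1 TTTGAA.

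Among the UBE2D and UBE2E families, the closest relatives that serve many ligases, 7 genes were measured. Ube2d3 (1423113_a_at) had 1499, 1535 and 1537 in DOX-treated knockout-labelled hearts, against 2117, 1946 and 2072 in DOX-treated WT hearts. All 3 knockout-labelled values lay below all 3 WT values. The means were 1523 ± 21.2 and 2045 ± 88.3 (SD, n = 3 each), a log2 fold change of -0.42 (SE 0.04, adjusted p = 0.00781). Without DOX, Ube2d3 had 1601, 1729 and 1789 in knockout-labelled hearts, against 2032, 2051 and 2001 in WT hearts. Here too the groups did not overlap, and the log2 fold change was -0.25 (SE 0.04, adjusted p = 0.0255). The call with DOX held without each of the 12 arrays, and the call without DOX was lost without untreated knockout-labelled replicate 1 (-0.20, adjusted p = 0.0516) and without each untreated WT array (adjusted p = 0.0722 to 0.106). DOX over untreated gave -0.16 in knockout-labelled hearts (adjusted p = 0.0939) and 0.01 in WT hearts (adjusted p = 0.935), and the interaction was -0.17 (unadjusted p = 0.0195, adjusted p = 0.519).

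**Figure D2:**
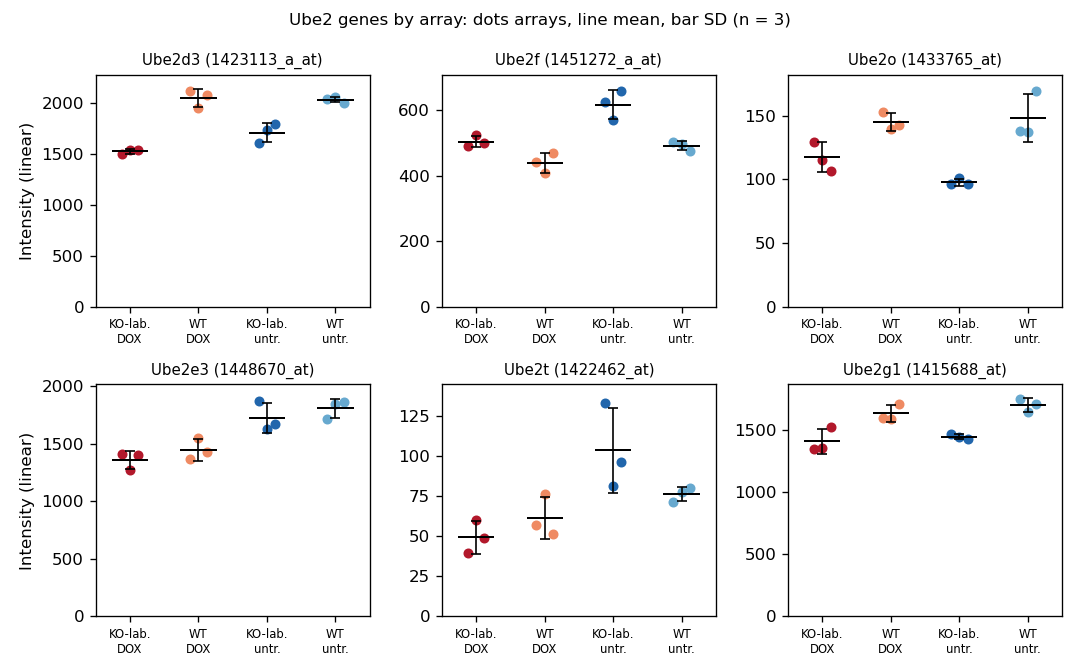
Linear intensity (vertical axis, from 0) of 6 Ube2 genes in the 4 groups, with dots for arrays, a line for the mean and a bar for the SD (n = 3). Ube2d3 lies lower in the knockout-labelled hearts than in WT hearts with and without DOX, at 1499 to 1537 against 1946 to 2117 with DOX, and Ube2e3 lies lower in both DOX groups than in their untreated groups.

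The 7 probe sets of Ube2d3 read the same gene and are no replicates of one another, yet they can be compared in direction. With DOX, all 7 had a log2 fold change below 0 in knockout-labelled over WT hearts, from -0.09 to -0.58, and in none did the groups overlap (9.13% of all probe sets lay lower without overlap). Of these, 3 were called, where 0.651% of all probe sets were called lower: the chosen one, 1455479_a_at at -0.45 (adjusted p = 0.00676) and 1450858_a_at at -0.58 (SE 0.04, adjusted p = 9.95e-04). On 1450858_a_at the values were 1132, 1135 and 1179 in DOX-treated knockout-labelled hearts, against 1765, 1662 and 1754 in DOX-treated WT hearts. Without DOX all 7 were again below 0, and 6 were called (0.89% of all probe sets were called lower), with 1450858_a_at at -0.57 (SE 0.04, adjusted p = 7.98e-04). The exception, 1455480_s_at, had a log2 fold change of -0.23 (adjusted p = 0.338), and its groups overlapped, while the other 6 lay lower without overlap (10.7% of all probe sets did). All 7 stayed below 0 in both comparisons without each array in turn and under both other scalings. The number called was 3 with DOX in each of these settings, and 2 to 6 without DOX, lowest without untreated WT replicate 2 or 3.

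**Figure D3:**
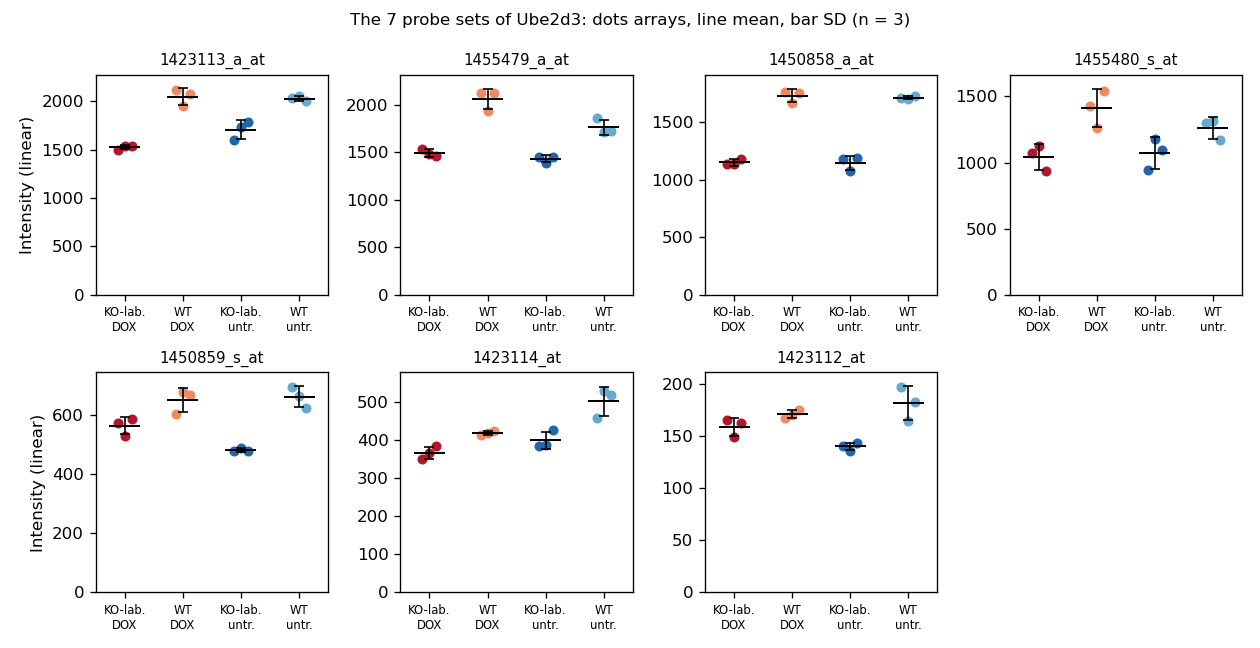
Linear intensity (vertical axis, from 0) of each of the 7 probe sets of Ube2d3, ordered by mean intensity, with dots for arrays, a line for the mean and a bar for the SD (n = 3). With DOX the knockout-labelled hearts lie below WT hearts on all 7, and without DOX on 6, with 1455480_s_at overlapping.

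The DOX response of Ube2d3 depended on the probe set. On 1455479_a_at Ube2d3 rose with DOX in WT hearts, with 2125, 1941 and 2124 in DOX-treated hearts, against 1859, 1721 and 1723 in untreated hearts (log2 fold change 0.22, SE 0.05, adjusted p = 0.0359). This probe set was singled out after its values were seen, and its call was lost in 6 of 12 fits that left out 1 array, with the highest adjusted p, 0.129, without untreated WT replicate 3, and after quantile normalization (adjusted p = 0.0711). On 1423114_at the same comparison gave -0.24 (adjusted p = 0.0532), with 413, 417 and 423 in DOX-treated WT hearts, against 457, 529 and 518 in untreated WT hearts. On the chosen probe set it was 0.01, so no single direction holds for the gene. Ube2d1, Ube2d2a and Ube2d3 encode very similar proteins, the deposited table gives no probe positions, and whether probes read a relative was not tested.

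Ube2e3, an E2 of the UBE2D type with an added N-terminal stretch, was the only member called on its chosen probe set for DOX in both genotypes; Ube2a was so called on its dimmer probe set, given with that gene. It had 1409, 1270 and 1406 in DOX-treated knockout-labelled hearts, against 1869, 1632 and 1669 in untreated knockout-labelled hearts. In WT hearts it had 1367, 1553 and 1427 with DOX, against 1713, 1843 and 1866 without. In both genotypes the DOX values lay below all untreated values. The log2 fold changes were -0.33 (SE 0.07, adjusted p = 0.0385) in knockout-labelled hearts and -0.31 (SE 0.07, adjusted p = 0.0404) in WT hearts, and the mean intensity fell by 21.0% and fell by 19.8%. The interaction was -0.02 (SE 0.09, adjusted p = 0.971). Both calls are close to the threshold. The call in knockout-labelled hearts was kept in 5 of the 12 fits without 1 array, those without a DOX-treated WT array, untreated knockout-labelled replicate 2 or untreated WT replicate 1, with adjusted p of up to 0.115 in the others. The call in WT hearts was kept in 4, those without DOX-treated knockout-labelled replicate 2 or an untreated knockout-labelled array, with adjusted p of up to 0.141 in the others. Without untreated knockout-labelled replicate 3 the values were -0.35 (adjusted p = 0.0651) in knockout-labelled hearts and -0.31 in WT hearts, where the call held. Some fibroblast and macrophage markers fell with DOX in the same comparisons. Of 5 fibroblast markers, all 5 had a log2 fold change below 0 in knockout-labelled hearts, with Lum (-0.995, adjusted p = 0.0180) and Col1a1 (-1.25, adjusted p = 0.0329) called, and 4 did in WT hearts, with Lum called (-1.53, adjusted p = 0.00439). Their summed intensity was 9673 to 10840 with DOX, against 10197 to 14473 without, in knockout-labelled hearts, and 8355 to 9833, against 9146 to 10908, in WT hearts. Of 5 macrophage markers, all 5 were below 0 in knockout-labelled hearts with no call, and 4 in WT hearts, with Cd68 (-0.95, adjusted p = 0.0188) and Csf1r (-0.75, adjusted p = 0.0164) called. Their sums were 2342 to 2807 with DOX, against 2626 to 4121 without, in knockout-labelled hearts, and 1698 to 2260, against 2776 to 3417, in WT hearts. The cardiomyocyte marker Ryr2 (-0.50, adjusted p = 0.0420) and the smooth muscle and pericyte markers Acta2 (-1.91, adjusted p = 0.0251) and Cspg4 (-0.39, adjusted p = 0.0385) were also called lower in knockout-labelled hearts. Cardiomyocyte sums were 76654 to 79390 with DOX, against 77755 to 81470 without, in knockout-labelled hearts. In WT hearts they were 70772 to 85794, against 82829 to 86091. The part of all these cells in the DOX results of Ube2e3 and the other members was not tested.

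The other members of these families passed in no comparison. Ube2e2 had 87.8, 73.5 and 76.0 in DOX-treated knockout-labelled hearts, against 97.9, 116 and 112 in DOX-treated WT hearts. The groups did not overlap, and the log2 fold change of -0.34 (SE 0.08) had an adjusted p of 0.0889. Ube2e1 gave -0.23 in the same comparison (adjusted p = 0.256). Ube2d1 gave -0.24 between the untreated genotypes (adjusted p = 0.277) and -0.23 for DOX in WT hearts (adjusted p = 0.220). Ube2d2a had log2 fold changes from -0.08 to 0.01 in the 4 comparisons, and Ube2d2b was dim, with a mean intensity of 5.21.

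Of the 6 E2 enzymes known to work with CHIP (Ube2d1, Ube2d2a, Ube2d3, Ube2n, Ube2v1 and Ube2w), Ube2d3 was the only one called, between the genotypes with and without DOX. Ube2n, which builds chains of the signalling type together with Ube2v1 or Ube2v2, had 384, 415 and 405 in untreated knockout-labelled hearts, against 355, 338 and 317 in untreated WT hearts. Its groups did not overlap, at a log2 fold change of 0.23 (SE 0.08, adjusted p = 0.171), and with DOX the difference was 0.09 (adjusted p = 0.610). For DOX over untreated Ube2n gave -0.26 in knockout-labelled hearts (adjusted p = 0.110) and -0.12 in WT hearts (adjusted p = 0.443). Ube2v1 and Ube2v2 lack the catalytic cysteine of an E2 and serve as its partners. Ube2v1 lay between -0.06 and 0.10 in the 4 comparisons. Ube2v2 had 211, 212 and 363 in untreated knockout-labelled hearts, where replicate 3 stands far above the other 2, and its log2 fold change for DOX in these hearts was -0.38 (SE 0.17, adjusted p = 0.314). Ube2w, which modifies protein N-termini, likewise had 104, 101 and 149 in that group, again with replicate 3 highest.

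In the G, K and R families, which build chains that mark proteins for the proteasome, no gene of 4 was called. Ube2g1, which extends chains at cullin-RING ligases, had 1344, 1351 and 1518 in DOX-treated knockout-labelled hearts, against 1595, 1587 and 1707 in DOX-treated WT hearts. Without DOX it had 1466, 1443 and 1421 in knockout-labelled hearts, against 1748, 1638 and 1702 in WT hearts. In both comparisons the knockout-labelled values lay below all WT values, with log2 fold changes of -0.21 (SE 0.05, adjusted p = 0.0814) and -0.23 (SE 0.05, adjusted p = 0.0527), neither of which passed. The other Ube2g1 probe set gave -0.26 (adjusted p = 0.396) and -0.52 (adjusted p = 0.0889). Ube2g2, an E2 of endoplasmic reticulum-associated degradation, had 688, 692 and 622 in DOX-treated WT hearts, against 526, 521 and 456 in untreated WT hearts, without overlap. This log2 fold change of 0.39 (SE 0.09) had an adjusted p of 0.0538. In knockout-labelled hearts Ube2g2 had 738, 639.5 and 574 with DOX, against 576, 510 and 592 without, and these overlapped (0.20, adjusted p = 0.319). Ube2k stayed between -0.08 and 0.00 in the 4 comparisons, and Ube2r2, an E2 of cullin-RING ligases, gave -0.22 (adjusted p = 0.137) for DOX in knockout-labelled hearts and -0.17 (adjusted p = 0.205) in WT hearts.

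The E2 enzymes anchored in the endoplasmic reticulum membrane are Ube2j1 and Ube2j2, and neither was called on its chosen probe set. The 2 probe sets of Ube2j1 disagreed, and the dimmer one was singled out after its values were seen. On 1448824_at, Ube2j1 had 102, 104 and 81.9 in DOX-treated knockout-labelled hearts, against 151, 149 and 158 in DOX-treated WT hearts. Untreated, it had 115, 97.0 and 94.4 in knockout-labelled hearts, against 118, 118 and 109 in WT hearts, so that DOX-treated WT hearts lay above the other 3 groups. The genotype difference with DOX was -0.53 (SE 0.08, adjusted p = 0.0232), and DOX in WT hearts gave 0.33 (SE 0.08, adjusted p = 0.0497). The genotype call was lost without DOX-treated knockout-labelled replicate 2 or 3 or DOX-treated WT replicate 1 or 2 (adjusted p = 0.0590 to 0.0762). The DOX call was lost in 9 of 12 fits that left out 1 array (adjusted p of up to 0.167, without untreated WT replicate 3) and under both other scalings (0.0563 and 0.0567). The interaction was -0.40 (unadjusted p = 0.00413, adjusted p = 0.441). On the chosen probe set, 1417723_at, the same comparisons gave -0.12 (adjusted p = 0.633) and 0.18 (adjusted p = 0.411).

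**Figure D4:**
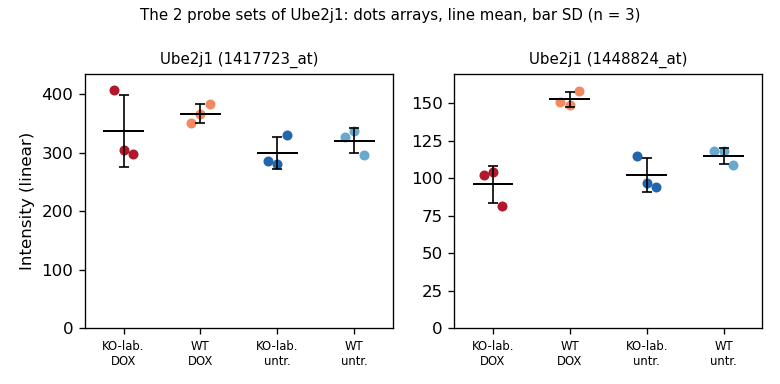
Linear intensity (vertical axis, from 0) of the 2 probe sets of Ube2j1 in the 4 groups, with dots for arrays, a line for the mean and a bar for the SD (n = 3). On 1448824_at the DOX-treated WT hearts, at 149 to 158, lie above the other groups, and on 1417723_at DOX-treated knockout-labelled and WT hearts overlap.

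The E2 enzymes of the anaphase-promoting complex are Ube2c, which starts chains, and Ube2s, which extends them. Ube2s had 1260, 1198 and 1331 in DOX-treated knockout-labelled hearts and 1125, 1222 and 1132 in DOX-treated WT hearts, which overlap. Untreated, it had 1403, 1362 and 1179 in knockout-labelled hearts and 1358, 1437 and 1401 in WT hearts. For DOX over untreated in WT hearts the groups did not overlap, at -0.26 (SE 0.07, adjusted p = 0.0605), and in knockout-labelled hearts the value was -0.05 (adjusted p = 0.785). The interaction was 0.21 (unadjusted p = 0.0459, adjusted p = 0.570). Ube2c was dim, with 9.82 to 13.5 on the 6 DOX arrays and 11.6 to 30.7 on the 6 untreated arrays.

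Among the E2 enzymes of DNA repair and chromatin, Ube2t, which monoubiquitinates FANCD2 in the Fanconi anaemia pathway, fell with DOX in knockout-labelled hearts. It had 39.5, 60.1 and 48.8 with DOX, against 133, 81.2 and 96.4 without. The groups did not overlap, and the log2 fold change was -0.72 (SE 0.15, adjusted p = 0.0379), and the mean intensity fell by 52.2%. In WT hearts Ube2t had 56.9, 76.1 and 51.3 with DOX, against 71.6, 77.5 and 80.2 without, which overlapped (-0.22, adjusted p = 0.471). The interaction was -0.50 (SE 0.21, unadjusted p = 0.0356, adjusted p = 0.561), so the DOX response of Ube2t was not shown to differ between genotypes. The call was lost in 9 of 12 fits without 1 array, kept only without DOX-treated WT replicate 2 or 3 or untreated knockout-labelled replicate 2. It was lost without each DOX-treated knockout-labelled array (adjusted p = 0.0617 to 0.141), without untreated knockout-labelled replicate 1 (-0.57, adjusted p = 0.0710) and without replicate 3 (-0.75, adjusted p = 0.0708). Most cell cycle markers also fell with DOX in knockout-labelled hearts. Of 10 listed, 9 were measured and 6 had a mean intensity under 32, and their summed intensity was 202 to 211 in DOX-treated knockout-labelled hearts, against 249 to 354 in untreated ones. Top2a (-0.62, adjusted p = 0.0342) and Cdk1 (-0.39, adjusted p = 0.0472) were called lower in the same comparison. Of the 9 markers, 7 had a log2 fold change below 0 there, and Cdc20 and Bub1 were at 0.01. In WT hearts the sums were 209 to 229 with DOX and 251 to 289 without, with all 9 markers below 0 and 0 called. The part of these markers in the Ube2t result was not tested.

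Ube2a and Ube2b, the mammalian counterparts of yeast Rad6, mark histone H2B and the DNA clamp PCNA. Neither was called on its chosen probe set. The dimmer Ube2a probe set, 1417609_at, singled out after its values were seen, had 392, 398 and 419 in DOX-treated knockout-labelled hearts, against 487, 538 and 486 in untreated knockout-labelled hearts. In WT hearts it had 397, 386 and 387 with DOX, against 479, 463 and 538 without. The DOX groups lay below the untreated groups in both genotypes, at -0.30 (SE 0.06, adjusted p = 0.0297) in knockout-labelled and -0.31 (SE 0.06, adjusted p = 0.0253) in WT hearts. Each call was lost without any one of 4 arrays of its own comparison, with adjusted p of up to 0.117 without DOX-treated knockout-labelled replicate 1 and up to 0.0771 without DOX-treated WT replicate 2, and after quantile normalization the call in knockout-labelled hearts was lost (adjusted p = 0.0722). The brighter probe set of Ube2a gave 0.02 (adjusted p = 0.938) and -0.06 (adjusted p = 0.772), and in both genotypes its groups overlapped.

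Ube2f and Ube2l6 carry ubiquitin-like proteins. Ube2f, which passes NEDD8 to cullin 5, had 624, 569 and 657 in untreated knockout-labelled hearts, against 503, 498 and 475 in untreated WT hearts. All knockout-labelled values lay above all WT values, a log2 fold change of 0.31 (SE 0.06, adjusted p = 0.0361). With DOX, Ube2f had 490, 523 and 499 in knockout-labelled hearts, against 442, 408 and 469 in WT hearts, again without overlap (0.19, SE 0.06, adjusted p = 0.167). Ube2f fell with DOX in knockout-labelled hearts (-0.27, SE 0.06, adjusted p = 0.0479) and gave -0.15 in WT hearts (adjusted p = 0.193). Both calls share the 3 untreated knockout-labelled arrays, the highest of the 12. Without replicate 3 of that group the values were 0.26 (adjusted p = 0.106) and -0.23 (adjusted p = 0.115). Over the 12 arrays left out in turn, 4 fits kept the genotype call and 3 the DOX call, and both were kept without DOX-treated WT replicate 2 or 3 or untreated knockout-labelled replicate 2. The highest adjusted p were 0.121 without untreated WT replicate 3 and 0.163 without DOX-treated knockout-labelled replicate 1. Of the 5 other probe sets of Ube2f, 1432426_a_at was called in both comparisons, at 0.34 (adjusted p = 0.0208) and -0.30 (adjusted p = 0.0291). The pair 1429568_x_at and 1450275_x_at had the same signs without a call, and the 2 dimmest had log2 fold changes of -0.11 and 0.01 between the untreated genotypes and of 0.05 and 0.01 for DOX in knockout-labelled hearts. Some smooth muscle and fibroblast markers also stood high in untreated knockout-labelled hearts. The summed intensity of 4 smooth muscle and pericyte markers was 14319 to 20073 there, against 9643 to 10779 in untreated WT hearts, and Acta2 carried it, with a mean of 9499, against 1716 (2.41, adjusted p = 0.0139). Of the other 3, Cspg4 lay higher without overlap (0.35, adjusted p = 0.0575), Myh11 overlapped (0.31, adjusted p = 0.684), and Rgs5 had means of 7300 in knockout-labelled and 8098 in WT hearts (-0.15, adjusted p = 0.373). The 5 fibroblast markers summed to 10197 to 14473, against 9146 to 10908, with Col1a1 called (1.13, adjusted p = 0.0480). With DOX the smooth muscle sums were 10290 to 11429 in knockout-labelled and 10157 to 11325 in WT hearts, and the fibroblast sums 9673 to 10840 and 8355 to 9833. Single markers differed there, while the smooth muscle and fibroblast sums overlapped. The smooth muscle markers went in both directions, and all 5 fibroblast markers had a log2 fold change above 0 (median 0.21). Lum was called higher in DOX-treated knockout-labelled hearts (1.17, adjusted p = 0.0198). Acta2 (0.89, adjusted p = 0.249) and Pdgfra (0.21, adjusted p = 0.374) lay higher without overlap. Rgs5 lay lower without overlap (-0.17, adjusted p = 0.281), and Myh11 gave -0.54 with overlap (adjusted p = 0.340). Of 5 macrophage markers, 4 were above 0 and 1, Cd14, below (-0.14, adjusted p = 0.873). Among them Cd68 (0.43, adjusted p = 0.208) and Csf1r (0.44, adjusted p = 0.105) lay higher without overlap. The macrophage sums with DOX, 2342 to 2807 in knockout-labelled and 1698 to 2260 in WT hearts, did not overlap. Of 5 endothelial markers, all 5 were below 0 in knockout-labelled over WT hearts with DOX, and 4 without DOX, with 0 called. Their sums were 1814 to 2311 against 2300 to 2508 with DOX, and 2319 to 2707 against 2340 to 2766 without. The part of all these cells in the genotype differences of Ube2f, Ube2d3 and Ube2o was not tested.

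Ube2l6, which passes on the interferon-induced protein ISG15, was dim. It had 14.7, 17.1 and 13.3 in DOX-treated WT hearts, against 20.7, 42.0 and 43.5 in untreated WT hearts. These did not overlap, at -0.50 (SE 0.12, adjusted p = 0.0540). In knockout-labelled hearts Ube2l6 had 15.2, 13.7 and 15.0 with DOX, against 26.4, 29.6 and 21.0 without (-0.30, SE 0.12, adjusted p = 0.240). In a list of 10 interferon-stimulated genes 8 were measured and 0 were called in any comparison, where 0% to 3.97% of all genes were. All 8 had values below 0 for DOX in WT hearts, with a median of -0.48, against -0.02 over all genes, and 3 of 8 did in knockout-labelled hearts, with a median of 0.05. The ISG15-activating enzyme Uba7 had 108, 94.2 and 94.4 in DOX-treated WT hearts, against 146, 191 and 120 in untreated WT hearts (-0.48, adjusted p = 0.0806). In knockout-labelled hearts Uba7 had 88.6, 98.0 and 111 with DOX, against 137, 142 and 112.5 without (-0.31, adjusted p = 0.278). Its DOX values lay below all untreated values in both genotypes, with no call.

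Of the remaining 8 members, only Ube2o was called. Ube2o is a large enzyme that combines E2 and E3 activity and removes ribosomal proteins in maturing red cells. It had 96.1, 101 and 96.1 in untreated knockout-labelled hearts, against 138, 137 and 170 in untreated WT hearts. The groups did not overlap, and the log2 fold change was -0.47 (SE 0.07, adjusted p = 0.0196), with means of 97.7 ± 2.75 and 148 ± 18.7 (SD, n = 3 each). With DOX, Ube2o had 130, 116 and 106 in knockout-labelled hearts, against 153, 139 and 143 in WT hearts, again without overlap (-0.25, SE 0.07, adjusted p = 0.149). DOX over untreated gave 0.20 in knockout-labelled hearts (adjusted p = 0.217) and -0.02 in WT hearts (adjusted p = 0.928). The untreated call was lost without knockout-labelled replicate 1 (-0.46, adjusted p = 0.0516), without replicate 3 (-0.46, adjusted p = 0.0578) and without WT replicate 2 (-0.51, adjusted p = 0.0589). The 4 erythroid markers summed to 157 to 434 in untreated knockout-labelled hearts, against 287 to 1233 in untreated WT hearts. With DOX they summed to 115 to 158 in knockout-labelled and 102 to 124 in WT hearts. Alas2, which leads the list, fell with DOX in WT hearts (-3.21, SE 0.57, adjusted p = 0.0249) and gave -1.50 between the untreated genotypes (adjusted p = 0.250). Of the other markers in that genotype comparison, Slc4a1 gave -0.88 (adjusted p = 0.284). Epor hardly differed (-0.01, adjusted p = 0.989). Hba-a1 gave 0.01 (adjusted p = 0.953), but its probe set was dim, with means of 9.40 in untreated knockout-labelled and 9.14 in untreated WT hearts. The 32 added before log2 makes fold changes at such intensities small, so this value cannot show whether Hba-a1 RNA differed. The part of red cell RNA in the untreated Ube2o difference was not tested.

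The other members of this group passed nowhere. Ube2ql1 had the value nearest to the threshold, 0.38 for DOX in knockout-labelled hearts (SE 0.11, adjusted p = 0.122), without overlap between 190, 158 and 170 with DOX and 128, 141 and 108 without. Ube2q2 gave -0.22 in the same comparison (adjusted p = 0.214), and its untreated replicate 3 had 442 where replicates 1 and 2 had 343 and 360. Ube2h, the E2 of the CTLH ligase complex in red cell precursors, lay between -0.16 and 0.22 in the 4 comparisons with no call. Ube2q1 lay between -0.11 and 0.03, and Ube2z, which receives ubiquitin from Uba6, between -0.07 and 0.09. Ube2u was dim, with a mean intensity of 8.33. Of the members outside the roles above, Ube2cbp and Ube2d-ps had no call.

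Steps before and beside the E2 enzymes were described on lists of related genes. Of 9 E1 enzymes 6 were measured. Uba3, the catalytic part of the NEDD8 E1, fell with DOX in knockout-labelled hearts, with 389, 478 and 417, against 583, 707 and 785 untreated (-0.65, SE 0.11, adjusted p = 0.0226). In WT hearts Uba3 had 414, 515 and 485 with DOX and 512, 508 and 536 without (-0.13, adjusted p = 0.591). Nae1, its partner subunit, was lower in DOX-treated knockout-labelled hearts, with 596, 567 and 575, against 749, 835 and 695 in DOX-treated WT hearts (-0.37, SE 0.06, adjusted p = 0.0274). Nedd8 itself had 1809, 1767 and 1825 in untreated knockout-labelled hearts, against 1624, 1516 and 1447 in untreated WT hearts (0.23, SE 0.05, adjusted p = 0.0515), just outside the threshold. Between the untreated genotypes Uba3 also lay higher without overlap (0.38, adjusted p = 0.127), and Nae1 lower without overlap (-0.09, adjusted p = 0.573). For DOX in knockout-labelled hearts Nedd8 lay lower without overlap (-0.11, adjusted p = 0.323). Thus the NEDD8 genes Ube2f, Uba3, Nae1 and Nedd8 did not share one set of calls. Of these, Ube2f, Uba3 and Nedd8 lay higher without overlap between the untreated genotypes and lower without overlap for DOX in knockout-labelled hearts. Both comparisons use the same untreated knockout-labelled arrays. Sae1, Uba6, Ufm1 and Urm1, from the lists of related genes, lay in the same directions without overlap. Of all genes, 9.64% lay higher without overlap in the first comparison and 12.3% lower without overlap in the second.

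Atg7, the E1-like enzyme of autophagy, had 119, 120 and 121 in DOX-treated knockout-labelled hearts and 96.8, 103 and 103 in untreated ones, and rose by 0.19 on the log2 scale (SE 0.03, adjusted p = 0.0138). In WT hearts Atg7 had 110, 106 and 112 with DOX, against 127, 124 and 125 without, and fell by 0.15 on the log2 scale (SE 0.03, adjusted p = 0.0253). Between the untreated genotypes it was lower in knockout-labelled hearts (-0.24, adjusted p = 0.00718). The interaction, 0.34 (SE 0.04), had an adjusted p of 0.0765. Of 12 ubiquitin and ubiquitin-like genes 5 were measured. Ufm1 was higher in untreated knockout-labelled hearts, with 321, 290 and 314, against 233, 256 and 234 in untreated WT hearts (0.32, adjusted p = 0.0315), and fell with DOX in knockout-labelled hearts (-0.28, adjusted p = 0.0456). Urm1 was also higher between the untreated genotypes (0.40, adjusted p = 0.0491). Among 8 E2 enzymes not named Ube2, and 5 ligases named Ube3 or Ube4, none was called in any comparison. Of all genes, 1.42% to 3.97% were called in the 4 comparisons and 0% for the interaction, so with lists this short the count is a description.

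The genotype difference could be set side by side with and without DOX on separate arrays. Over the 33 members Pearson's r between the pair of log2 fold changes was 0.284, with 20 of 33 of the same sign, and over all 18193 genes it was 0.503, with 10732 of the same sign. For the DOX response in knockout-labelled against WT hearts r was 0.459 with 20 of 33 of the same sign, and over all genes 0.616 with 11134. These correlations are across genes, which are not independent replicates.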

How the data were processed

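RNA of whole hearts was hybridised to 12 Affymetrix arrays, 3 for each of 4 groups, and the sample labels alone gave the groups. The deposited values are linear intensities per probe set, which the authors made with Affymetrix Expression Console; its version and summary method are not given in the sources used here, and no scanner files, scan dates or batches were used. Of the probe sets, 34945 name 1 gene, 932 several and 9160 none. In 51.4% of them the mean intensity is under 32, and the number of arrays limits the precision. All 33 members matched the RefSeq gene table (GRCm38.p6) by Entrez ID.

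To each intensity 32 was added before log2. limma 3.58.1 in R 4.3.3 fitted 4 group means over the 12 arrays together (lmFit, contrasts, eBayes with no trend). Its two-sided p-values were adjusted over the 45037 probe sets (Benjamini-Hochberg). The steps were tested on simulated data. Each p-value weighs a group difference against the spread between arrays of the same group, which limma moderates over all probe sets. Values per array are given for members called in any of the 5 comparisons and for the 3 with the smallest p in each; genes outside that rule are marked or belong to fixed lists of roles, CHIP partners, related enzymes and cell markers. The members and lists were chosen with earlier results of these data known. Same-numbered arrays of different groups had deviations from their group means with r of -0.249 to 0.15 over 18 pairs, so numbers were not taken as pairs. Motifs were searched and tables and plots made with pandas 2.3.3 and matplotlib 3.10.9 in Python 3.11.15. Alternatives covered scaling, the added value, a filter on dim probe sets, the probe set of a gene, the variance model, array weights, a replicate block, the arrays fitted, the t-test named in the methods, and leaving out each array. Echocardiography, blots and histology were left out.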

Additional observations from a re-analysis of the deposited data

How the results depend on the processing

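The main counts of called Ube2 genes were 1 for the genotype with DOX, 3 for the genotype without DOX, 3 for DOX in knockout-labelled hearts, 1 for DOX in WT hearts and 0 for the interaction. In the genotype comparison with DOX, 0 were called with nothing added before log2, with only the 6 arrays compared or with the methods' t-test after Benjamini-Hochberg, 7 with that t-test unadjusted, and 2 when any probe set of a gene counted. In the genotype comparison without DOX, 1 was called with 0 added or with a trended and robust variance, 0 with only the 6 arrays or with the adjusted t-test, and 5 with the unadjusted t-test. For DOX in knockout-labelled hearts, quantile normalization, 0 added and the trended and robust variance each gave 1, the 6 arrays and the adjusted t-test gave 0, and the unadjusted t-test gave 9. For DOX in WT hearts, quantile normalization, 1 probe set per gene and averaging each gene's probe sets each gave 3, 0 added, the filter on dim probe sets and the trended and robust variance each gave 2, array weights and any probe set each gave 4, the 6 arrays and the adjusted t-test gave 0, and the unadjusted t-test gave 7. No share over all genes was counted for the unadjusted t-test, so its counts are not read as a result about the members. In limma, 1621 of 18193 genes were higher and 1794 lower between the genotypes with DOX at an unadjusted p under 0.05. Such genes numbered 1545 and 1834 without DOX, 1618 and 2085 for DOX in knockout-labelled hearts, and 1781 and 2262 in WT hearts. The interaction stayed at 0 in each setting run. Any probe set counting, the directions over members and the other probe sets were added after seeing the data.

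Without 1 array the counts ranged from 1 to 2 for the genotype with DOX, 0 to 3 without DOX, 0 to 3 for DOX in knockout-labelled hearts, 0 to 3 for DOX in WT hearts and 0 to 0 for the interaction. The share of all genes called was not counted in these fits or in the other settings. No call was left between the untreated genotypes without knockout-labelled replicate 1 or WT replicate 2. None was left for DOX in knockout-labelled hearts without any one of its DOX arrays, without untreated knockout-labelled replicate 3 or without untreated WT replicate 2 or 3, and none for DOX in WT hearts without DOX-treated WT replicate 1 or 2 or untreated WT replicate 2 or 3. With the replicate number as a block, DOX in knockout-labelled hearts had 0 calls, DOX in WT hearts 1 (Ube2g2 in place of Ube2e3), the genotype comparisons 1 with DOX and 2 without, and the interaction 0; the numbers do not pair the hearts. The interaction of Ube2d3 reversed to 0.009 (adjusted p = 0.958) when its probe sets were averaged, as those probe sets differ in sign. The cause of the other changes was not tested, beyond the fewer arrays fitted. Ube2d3 with DOX passed in 9 of 12 settings, with adjusted p of 0.00258 to 0.224 over all alternatives. Dim probe sets limit Ube2c, Ube2l6, Ube2u and Ube2d2b.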
